A study of Mus musculus with 2 samples.

Results

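The secreted antagonists of Wnt signalling were followed in RNA-seq of optic nerves taken at P12 (postnatal day 12), when this white matter tract is being myelinated. The 9 genes were chosen by name, and each had 1 row in both libraries, among 23951 gene symbols found in both. The control library (1) came from *Tcf7l2* c/+ mice and the *Tcf7l2*ΔHMG (mutant) library (1) from *Tcf7l2* c/c mice, and both genotypes carried OLig1-cre. Cre removed the exon encoding the DNA-binding HMG box, from 1 allele in the control and from both in the mutant. It is driven by a gene of the oligodendrocyte (OL) lineage, and which cells of the nerve it acted in was not measured here. The number of animals per library is not given in the sources used here, and with 1 library per genotype no difference has a replicate check and no p-value is given.

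Wnt ligands signal through Frizzled receptors and the LRP5/6 co-receptors to stabilize β-catenin, which acts on DNA through TCF/LEF factors such as Tcf7l2. Secreted antagonists act upstream of all of these. The secreted Frizzled-related proteins (*Sfrp1*, *Sfrp2*, *Sfrp4*, *Sfrp5* and *Frzb*) carry a Frizzled-like cysteine-rich domain and bind Wnts, and Wif1 binds Wnts through a domain of its own. Dkk1 and Dkk2 instead bind LRP5/6, whereas Dkk3 is a divergent member of the Dickkopf family. Active Wnt/β-catenin signalling holds back OL differentiation.

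Expression was measured as FPKM, a fragment count scaled to transcript length and to the mapped total of the library, with the interval that Cufflinks gives for each value. Differences between animals are not part of this interval, which was computed within 1 library only. The depth read from the tables was 27624000 fragments for the control and 39938000 for the mutant library, so the error of low values was larger in the former. On 1 kb, 3 fragments were worth 0.109 FPKM and 0.0751 FPKM, respectively. *Tcf7l2* itself was at 17.8 FPKM in the control library and 14.6 in the mutant library. This does not check the genotype, because the deletion keeps the reading frame and the mutant transcript can still be made.

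*Dkk3* was by far the most abundant antagonist in both genotypes. It was measured at 68.8 FPKM in the control (interval 64.5 to 69.4) and at 90.7 FPKM in the *Tcf7l2*ΔHMG library (89.3 to 94.0). It made up 68.9% of the summed FPKM of the 9 genes in the control library and 68.1% in the mutant library, 6.32 and 5.22 times the next gene. Of all tested genes, 92.0% had a lower FPKM than *Dkk3* in the control.

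*Sfrp1* and *Wif1* came next and could not be ordered in the control, where their intervals overlapped at 10.9 and 10.8 FPKM. In the mutant they stood apart, at 17.4 and 12.1 FPKM. *Sfrp4* followed at 3.73 and 6.96 FPKM. *Frzb* and *Sfrp2* were again not told apart in the control (2.37 and 2.34 FPKM), whereas *Sfrp2* lay above *Frzb* in the mutant (2.70 and 1.71 FPKM), with intervals that did not overlap. Those 6 genes passed an FPKM of 1 in at least 1 library.

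The other 3, *Sfrp5*, *Dkk1* and *Dkk2*, stayed below 1 FPKM in both libraries. They ran from 0.281 to 0.384 FPKM in the control, with overlapping intervals between neighbours. In the mutant *Sfrp5* (0.723) and *Dkk1* (0.571) still overlapped, and *Dkk2* (0.260) lay below both. The interval of *Dkk1* was as wide as counting error alone would give for 22.6 (control) and 40.6 (mutant) fragments, that of *Sfrp5* for 19.8 and 43.6, and that of *Dkk2* for 33.6 and 40.1. For *Dkk3* the same figure was 3010 and 6141 fragments.

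**Figure D1:**
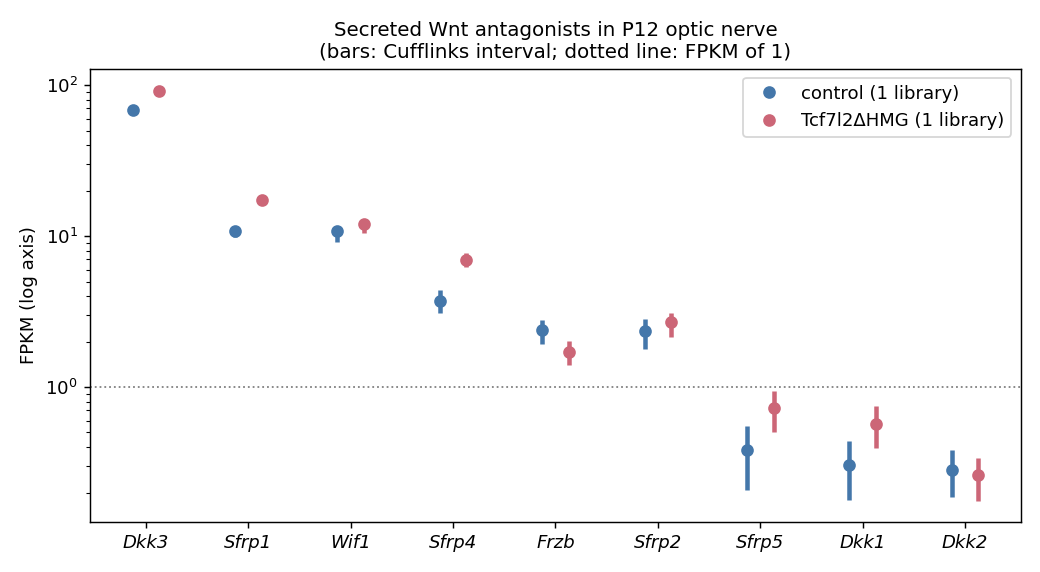
FPKM of the 9 antagonists on a log axis in the control library (blue) and the *Tcf7l2*ΔHMG library (red), with bars for the Cufflinks interval and a dotted line at an FPKM of 1. *Dkk3* lies highest at 68.8 and 90.7 FPKM, and *Sfrp5*, *Dkk1* and *Dkk2* lie below the line in both libraries.

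The log2 ratio of the mutant to the control was computed after 0.1 was added to each FPKM, which understates the change of low genes. A fold change above 1.5 on that scale was counted. The 14199 tested genes reached an FPKM of 1 in either library and had the Cufflinks status OK in both. Their median log2 ratio was 0.047, and 90% of them lay between −0.83 and 1.18. In whole nerves, fewer cells of a type and less RNA per cell cannot be told apart.

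Among the Frizzled-related proteins, *Sfrp4* had the highest ratio on this scale. It went from 3.73 FPKM in the control (3.096 to 4.38) to 6.96 FPKM in the mutant (6.21 to 7.72). This is a fold of 1.87 and a log2 ratio of 0.88. The bounds of both intervals allow folds from 1.42 to 2.49, so the lower bound is under the cutoff. Among genes with a geometric mean of 5 to 20 FPKM over both libraries (5933), 95.3% had a lower ratio. *Sfrp4* lies near the lower limit of that range, and the middle 90% of genes with a mean of 1 to 5 FPKM reached 1.56. The files place *Sfrp4* on chromosome 13 from 19715044 to 19724692 in the control and from 19714986 in the mutant, in the mm9 build that the submitters' notes name.

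*Sfrp1*, on chromosome 8 from 24521974 to 24560104, was also past the cutoff. It was at 10.9 FPKM in the control (9.90 to 11.5) and 17.4 FPKM in the mutant (16.7 to 18.3). The fold was 1.60, the log2 ratio 0.67, and the bounds allow folds from 1.45 to 1.84, so the value is close to the cutoff and its lower bound is under it. Among the genes with a mean of 5 to 20 FPKM, 91.8% had a lower ratio.

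*Sfrp5*, on chromosome 19 from 42272461 to 42276742, had a fold as large as that of *Sfrp4*, but on few fragments. It was at 0.384 FPKM in the control (0.210 to 0.553) and 0.723 FPKM in the mutant (0.502 to 0.938), a log2 ratio of 0.77. These intervals overlapped, and the bounds allow folds from 0.908 to 4.47. Genes at that level varied widely between these libraries, and 73.4% of the 2680 genes with a mean of 0.2 to 1 FPKM had a lower ratio, so a difference of *Sfrp5* was not detectable at this depth. An unnamed row at 8.93 FPKM lay 2920 bases from it in the mutant table alone, nearer to *Zfyve27* (20.8 and 9.10 FPKM) than to *Sfrp5*.

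*Sfrp2*, on chromosome 3 from 83570243 to 83578236, was at 2.34 FPKM in the control (1.79 to 2.82) and 2.70 FPKM in the mutant (2.14 to 3.12). Its log2 ratio was 0.20 and the intervals overlapped. *Frzb*, on chromosome 2 from 80252127 to 80287553, was the family member with a lower value in the mutant. It was at 2.37 FPKM in the control (1.93 to 2.78) and 1.71 FPKM in the mutant (1.41 to 2.02), a log2 ratio of −0.45. The intervals overlapped by a small margin, and 13.6% of the 3894 genes with a mean of 1 to 5 FPKM had a lower ratio. Summed over the 5 Frizzled-related genes, the level was 19.7 FPKM in the control library and 29.5 FPKM in the mutant library, and *Sfrp1* and *Sfrp4* together held 14.6 and 24.3 of it.

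*Wif1*, on chromosome 10 from 120471060 to 120537698, was nearly level between the libraries. It was at 10.8 FPKM in the control (9.16 to 11.2) and 12.1 FPKM in the mutant (10.4 to 12.3), a log2 ratio of 0.16 with overlapping intervals. The bounds allow folds from 0.931 to 1.35, which leaves out the cutoff on either side.

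Of the Dickkopf genes, *Dkk3*, on chromosome 7 from 119259533 to 119302571, had the firmest values and a moderate ratio. Its fold of 1.32 (log2 ratio 0.40) stayed under the cutoff, while its intervals did not overlap, and the bounds allow folds from 1.29 to 1.46. In FPKM its difference of 21.9 was the largest of the 9 genes, above the 6.49 of *Sfrp1* and the 3.24 of *Sfrp4*. Only in the mutant table did an unnamed row lie beside it, 92 bases from its 3′ end, at 7.55 FPKM, and this row is not part of the value of *Dkk3*.

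*Dkk1*, the high-affinity LRP5/6 antagonist and a known target of β-catenin and TCF factors in other tissues, lies on chromosome 19 from 30620374 to 30623986. It was at 0.306 FPKM in the control (0.178 to 0.437) and 0.571 FPKM in the mutant (0.392 to 0.750), a log2 ratio of 0.73. As for *Sfrp5*, the intervals overlapped, and the bounds allow folds from 0.897 to 4.21. *Dkk2*, on chromosome 3 from 131748256 to 131843268, was at 0.281 FPKM in the control (0.186 to 0.381) and 0.260 FPKM in the mutant (0.176 to 0.338). Its log2 ratio was −0.08, with bounds that allow folds from 0.461 to 1.82, which include the cutoff in both directions. Their relative *Dkk4* was listed at 0 in both libraries.

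The promoters were read for short cores of the TCF/LEF motif, which the HMG domain binds, and for the motif of Kaiso, a DNA-binding protein that the study also examined. Promoters (250 bases before and 50 after the start, RefSeq, GRCm38.p6) were matched by symbol for 6 of the 9 genes, and none was in the table for *Sfrp1*, *Sfrp4* and *Dkk3*. The TCF/LEF core was searched as CTTTGAT and CTTTGTT and the Kaiso site as TCCTGCNA, on both strands, and no match overlapped another. *Dkk1* alone held a searched TCF/LEF core, a CTTTGTT that begins at position −98 from the start, and 9.33% of all 32851 promoters hold CTTTGAT or CTTTGTT. *Sfrp2*, at position −165, and *Frzb*, at position 30 on the opposite strand, each held a Kaiso site, and 4.96% of all promoters hold one. *Sfrp5*, *Dkk2* and *Wif1* had no match in this window.

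The 3 stretches with a match are shown because they hold every match of the searched letters in the promoters of the antagonists, with the matched bases in capitals. The first is the *Dkk1* promoter, chr19:30549497-30549746 on the minus strand, the second the *Sfrp2* promoter, chr3:83766071-83766320 on the plus strand, and the third 30 bases around the match of *Frzb*, chr2:80447349-80447378 on the minus strand, all 5′ to 3′ along the gene.
Dkk1: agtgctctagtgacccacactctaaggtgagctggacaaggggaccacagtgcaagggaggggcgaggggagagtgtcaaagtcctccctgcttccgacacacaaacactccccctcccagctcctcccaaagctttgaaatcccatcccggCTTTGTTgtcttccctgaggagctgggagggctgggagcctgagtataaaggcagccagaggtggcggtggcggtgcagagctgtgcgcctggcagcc
Sfrp2: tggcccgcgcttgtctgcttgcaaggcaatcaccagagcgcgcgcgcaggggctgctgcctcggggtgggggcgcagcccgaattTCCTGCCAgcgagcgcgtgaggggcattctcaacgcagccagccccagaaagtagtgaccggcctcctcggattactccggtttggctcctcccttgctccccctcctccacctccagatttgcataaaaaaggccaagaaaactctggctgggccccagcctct
Frzb: cctctggccgcTCGCAGGAtcttcccgacc

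Beside these sequences, *Dkk1* had a log2 ratio of 0.73 on overlapping intervals, *Sfrp2* of 0.20 and *Frzb* of −0.45. A match of letters describes the sequence only and is not a measured binding site.

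**Figure D2:**
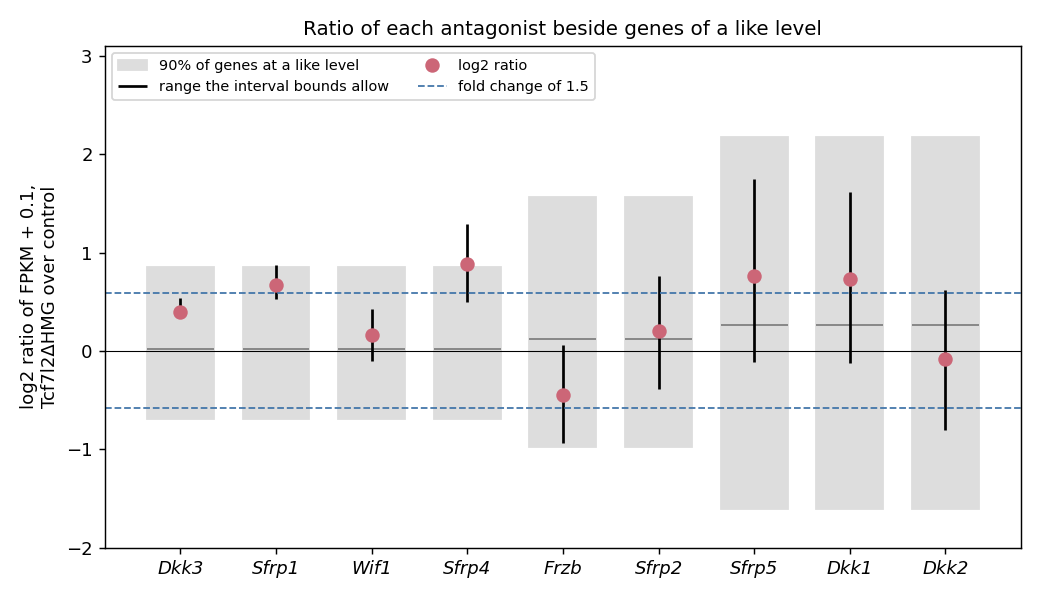
Log2 ratio of each antagonist, *Tcf7l2*ΔHMG over control (red points), with the range that the bounds of both Cufflinks intervals allow (black lines). Grey boxes hold 90% of all genes at a like level with their median as a grey line, and dashed lines mark a fold change of 1.5. *Sfrp4* (0.88) lies at the upper edge of its box, which spans −0.69 to 0.86, and the boxes of the 3 lowest genes span −1.61 to 2.18. The box of *Sfrp4* is that of genes at 5 to 20 FPKM, near whose lower limit it lies, and the box for 1 to 5 FPKM reaches 1.56.

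Of the 6 antagonists tested, 2 (*Sfrp1* and *Sfrp4*) were higher in the mutant by a fold above 1.5 and 0 were lower. Over all 14199 tested genes 15.4% were higher and 8.52% lower by that fold. Without the FPKM filter, *Sfrp5* and *Dkk1* were added, which gave 4 of 9 higher and 0 lower, beside 13.4% and 6.89% of 23853 genes. The intervals did not overlap for 3 of the 6 tested genes (*Sfrp1*, *Sfrp4* and *Dkk3*), all higher in the mutant, beside 30.0% of tested genes higher and 22.3% lower by that rule. The median log2 ratio of the 6 was 0.30, beside 0.047 over all tested genes. Of the 6, 5 had a ratio above 0, beside 54.6% of all tested genes. Of the 9, 7 lay above 0 (4 with all rows set to a common sum, described next), and the summed FPKM of the 9 was 99.8 in the control library and 133 in the mutant library, a fold of 1.33. The FPKM of each antagonist lay within its own interval in both libraries.

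Direction depended on what the libraries were scaled to. Unnamed rows held 70.7% of all FPKM in the control table and 80.7% in the mutant table. Rescaling all rows, named and unnamed, to a common sum moved the median log2 ratio of all tested genes to −0.61. Then 640 genes were higher and 7398 lower by a fold above 1.5, in place of 2185 and 1210, so that 7.96% of the genes past the cutoff were higher in place of 64.4%. On that scale 0 of the 6 tested antagonists were past the cutoff upwards and 1, *Frzb* at −1.04, was past it downwards, while 4 of the 9 were above 0. *Dkk3* stood at −0.27, *Sfrp1* at 0.00 and *Sfrp4* at 0.22. Relative to the median of all tested genes, these 3 were at 0.34, 0.61 and 0.83, close to the 0.35, 0.62 and 0.84 found with FPKM as deposited, and *Frzb* was at −0.43 and −0.49.

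**Figure D3:**
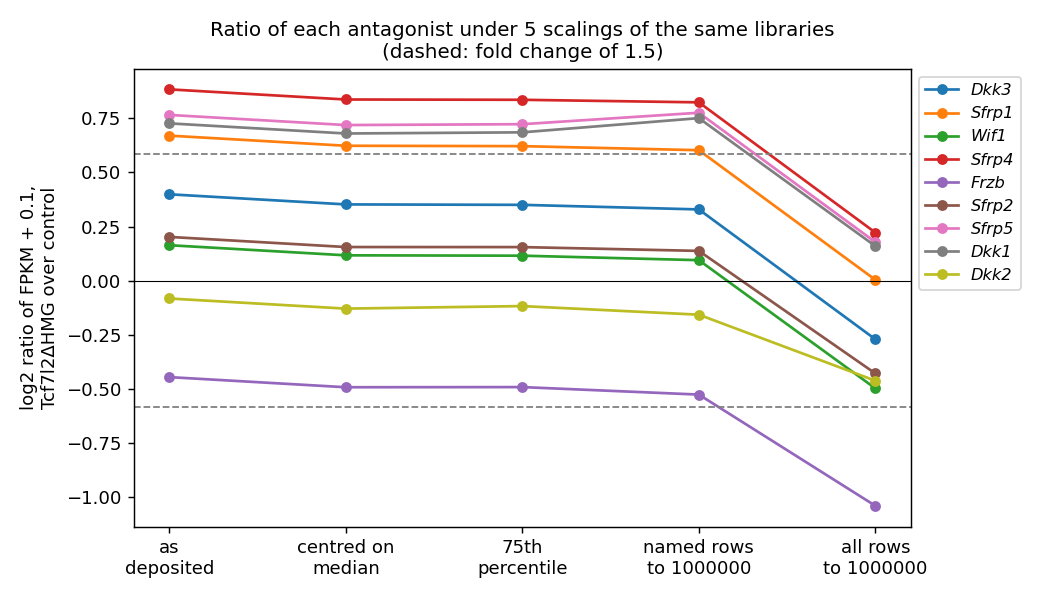
Log2 ratio of each antagonist, *Tcf7l2*ΔHMG over control, with FPKM as deposited and under 4 other scalings of the same libraries, with dashed lines at a fold change of 1.5. The first 4 scalings leave 7 of the 9 genes above 0, and setting all rows to a common sum leaves 4.

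The row that represents a gene also differed between the tables. *Sfrp1* and *Sfrp5* had the annotated gene model in the control and a model that Cufflinks assembled from the reads in the mutant. *Sfrp4* and *Dkk3* had assembled models in both, and *Sfrp2*, *Frzb*, *Dkk1*, *Dkk2* and *Wif1* the annotated model in both. Over all 1802 tested genes with the same pair of models as *Sfrp1*, the median log2 ratio was 0.18 and 23.7% were higher by a fold above 1.5. It was 0.018 and 12.3% over the 6408 genes assembled in both tables, and −0.074 and 6.67% over the 1409 genes with an assembled model in the control alone. The part of the gene model in the ratio of *Sfrp1* was not tested.

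The partners of these antagonists were described by lists written from general knowledge of the pathway, with earlier results of these data known. The counts in these lists and in the marker lists stand beside 15.4% of all tested genes higher and 8.52% lower by the same fold. Of 19 Wnt ligands, which the Frizzled-related proteins and Wif1 bind, 11 were tested, of which 5 were higher by a fold above 1.5 and 2 lower. *Wnt11* went from 1.15 to 2.36 FPKM (log2 ratio 0.97), *Wnt16* from 1.73 to 3.05 (0.78) and *Wnt9a* from 2.91 to 4.76 (0.69), and *Wnt4* and *Wnt6* were also past the cutoff. *Wnt3* went the other way, from 5.07 to 2.47 FPKM (−1.01), as did *Wnt8b*, from 3.46 to 2.24 (−0.60). *Wnt7b*, a ligand at 11.1 FPKM in the control, had a log2 ratio of −0.02. The summed level of the 19 ligands was 67.1 FPKM in the control library and 86.3 in the mutant library, a fold of 1.29 beside 1.33 for the antagonists.

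Of 17 Frizzled receptors and co-receptors, 16 were tested. All 16 had a ratio above 0, beside 54.6% of all tested genes, 6 were higher by a fold above 1.5, and 0 were lower. The median log2 ratio was 0.36, and the lowest, 0.015, was under the median of 0.047 over all tested genes. Of the 2 co-receptors that Dkk1 and Dkk2 bind, *Lrp5* was at 4.85 FPKM in the control library and 8.99 in the mutant library (0.88). *Lrp6*, the more abundant, was at 9.68 and 12.4 FPKM (0.36) and stayed under the cutoff. *Kremen1*, the receptor that removes LRP5/6 from the surface together with Dkk proteins, was at 9.01 and 14.2 FPKM (0.65) and past it. *Fzd2* (1.003), *Ror1* (0.78), *Fzd1* (0.73) and *Fzd7* (0.60) were the others past the cutoff. *Fzd9* and *Ryk*, the most abundant of the list in the control at 20.2 and 16.7 FPKM, had log2 ratios of 0.33 and 0.22.

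A further list held 15 genes for secreted or membrane proteins, most of them known as Wnt inhibitors, and 10 of them were tested. Of these, 6 were higher by a fold above 1.5 and 1 was lower, with a median log2 ratio of 0.70. *Shisa3*, which retains Frizzled receptors inside the cell, went from 1.94 to 5.92 FPKM (1.56), *Trabd2b*, which cleaves Wnts, from 3.61 to 8.22 (1.17), and *Notum*, which removes the lipid from Wnts, from 2.05 to 4.33 (1.04). *Shisa2* (0.85), *Gpc3* (0.72) and *Igfbp4* (0.68) were the others, and the FPKM of the last pair lay outside their own intervals in both libraries. *Draxin*, which binds LRP6, was lower, at 16.5 FPKM in the control library and 10.5 in the mutant library (−0.65). *Apcdd1*, at 48.9 FPKM in the control, had a log2 ratio of 0.03.

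Of 11 genes for R-spondins, Norrin and their receptors, which raise Wnt signalling or set its receptor level, 9 were tested, and 3 were higher and 0 lower. These were *Rspo2* (0.66 to 1.41 FPKM, log2 ratio 0.99), *Rnf43* (1.91 to 3.59, 0.88) and *Rspo3* (8.01 to 13.2, 0.71). *Tspan12* and *Lgr4*, the most abundant of them in the control, had log2 ratios of −0.53 and 0.03. Of 11 feedback and target genes, 10 were tested. All 10 had a ratio above 0, beside 54.6% of all tested genes, with a median log2 ratio of 0.36 and a lowest of 0.0016. Only *Nkd1*, an intracellular inhibitor of the pathway, was past the cutoff (19.5 to 47.9 FPKM, 1.29). *Ctnnb1* and *Ccnd1*, the most abundant of these in the control, had log2 ratios of 0.14 and 0.40. Both were reported by the paper as upregulated in its RNA-seq of P12 optic nerves, as were *Wnt4* and *Wnt6* of the ligand list. The counts of these lists are therefore not independent of that report. Over these 5 lists, 21 genes were higher and 3 lower by a fold above 1.5, beside 15.4% and 8.52% of all tested genes. With all rows set to a common sum 2 were higher and 12 lower, beside 4.51% and 52.1% of all tested genes.

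**Figure D4:**
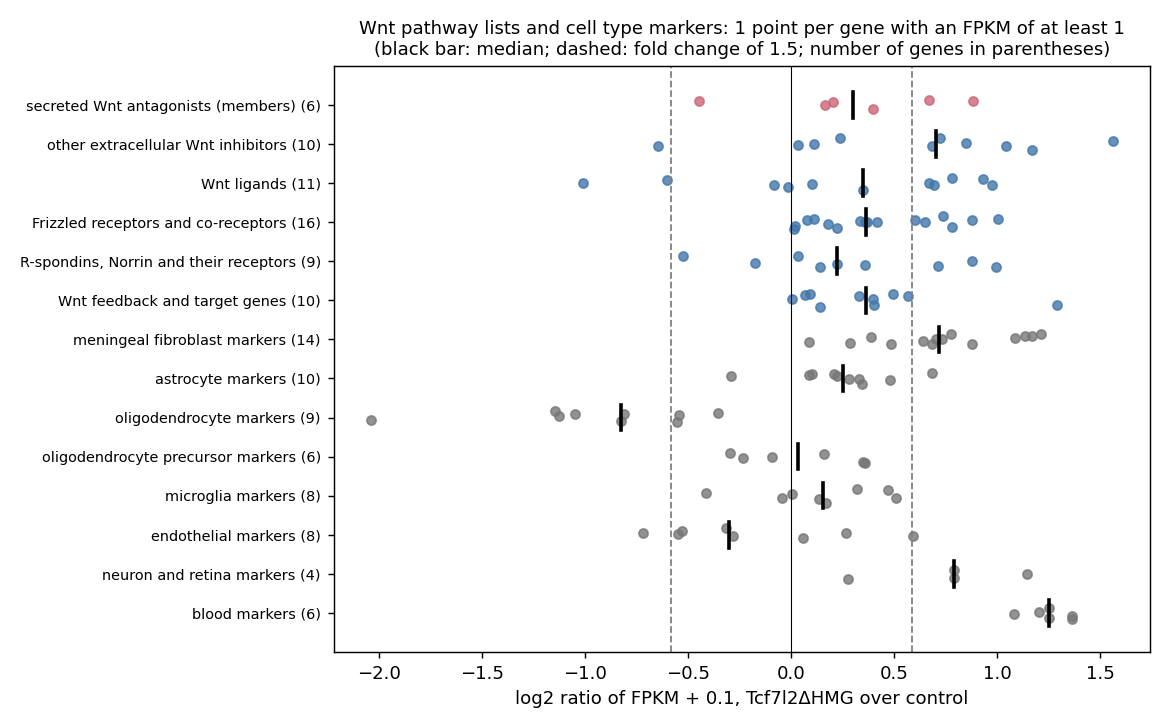
Log2 ratio of each tested gene, *Tcf7l2*ΔHMG over control, in the antagonists (red), 5 other Wnt lists (blue) and 8 lists of cell type markers (grey), with black bars for medians and dashed lines at a fold change of 1.5. The antagonists have a median of 0.30, the meningeal fibroblast markers of 0.72 and the oligodendrocyte markers of −0.83, and a common sum over all rows lowers the median of all tested genes to −0.61.

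Markers of some cell types of the nerve also differed between the libraries. All 14 meningeal fibroblast markers had a ratio above 0, beside 54.6% of all tested genes, and 10 of them were higher by a fold above 1.5. Their median log2 ratio was 0.72, and their summed level was 2266 FPKM in the control library and 3702 in the mutant library. The log2 ratios ran from 0.09 to 1.21. *Igf2* (686 and 1258 FPKM) and *Mgp* (236 and 548 FPKM, the highest ratio) had the highest means over both libraries, and *Igf2* lay outside its own interval in both and *Mgp* in the control. None of the 14 was at 0. The fold of the summed level was 1.63, beside folds of 1.60 for *Sfrp1* and 1.87 for *Sfrp4*. Blood markers were higher as well, with 6 of 6 measured past the cutoff and sums of 295 and 735 FPKM, in which *Hba-a1* and *Hba-a2* share a value in each library, as do *Hbb-b1* and *Hbb-bs*, so that these 6 genes hold 4 separate values. The sums count each shared value for both of its genes and so overstate the level. The part of meninges and blood in the values of the antagonists was not tested.

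The oligodendrocyte markers were lower, with 6 of 9 past the cutoff, a median log2 ratio of −0.83 and sums of 31626 and 18123 FPKM. *Mbp*, with the highest mean, was not past the cutoff (log2 ratio −0.54), and its FPKM lay outside its own interval in both libraries. None of the oligodendrocyte or astrocyte markers, which an optic nerve should hold, was at 0 in either library. Of 10 astrocyte markers (*Gfap* and *Atp1b2* with the highest means), 1 was higher and 0 lower by the cutoff, with sums of 5686 and 6661 FPKM. Of 6 precursor markers (*Ptprz1* and *Pdgfra* with the highest means) and 8 microglia markers (among them *C1qa*), 0 were past it, with sums of 195 and 212 FPKM and of 264 and 304 FPKM. The endothelial markers (*Cldn5* and *Ly6c1* with the highest means) summed to 168 and 139 FPKM, with 1 higher (*Cdh5*) and 1 lower (*Ly6c1*) of 8. The mural cell markers (*Rgs5* and *Pdgfrb* with the highest means) summed to 120 and 150 FPKM, with 2 higher and 1 lower of 8. Of those higher, *Tagln* was listed at 0 in the control and at 35.3 FPKM in the mutant, which is more than the difference between the sums.

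Most markers of tissue next to the nerve were low. *Tubb3* (12.7 and 22.0 FPKM) and *Acta1* (10.5 and 12.4 FPKM) were the highest, near the level of *Sfrp1* and *Wif1*. The part of such tissue in the values of the antagonists was not tested. Of 8 neuron and retina markers, with *Tubb3* and *Snap25* highest, 4 were tested and 3 were higher, with sums of 26.1 and 44.4 FPKM, a fold of 1.70. The photoreceptor gene *Opn1sw* was listed at 0 in both libraries. Markers of the retinal pigment epithelium summed to 2.43 and 4.39 FPKM, with 1 of 2 tested higher (*Ttr*, beside *Tyr*) and *Pmel* at 0 in both. The Schwann cell marker *Prx* was at 0.965 and 0.956 FPKM. Skeletal muscle markers, led by *Acta1* and *Mylpf*, summed to 14.0 and 16.5 FPKM, with 1 of 3 tested higher.

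The antagonists have compact coding regions. In the GENCODE M21 annotation, matched by symbol, the longest coding transcript encodes 272 residues for *Dkk1*, 259 for *Dkk2* and 349 for *Dkk3*. It encodes 314 residues for *Sfrp1* and for *Sfrp5*, and 379 for *Wif1*. *Sfrp1*, *Sfrp2* and *Sfrp5* share a plan of 3 exons, whereas *Frzb* has 6, *Dkk3* 8 and *Wif1* 10. *Sfrp4* has 4 coding transcripts in that annotation, and the FPKM here sums over whatever forms were present.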

How the data were processed

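RNA from optic nerves of control and *Tcf7l2*ΔHMG mice was sequenced. Reads were mapped by TopHat with its defaults and Cufflinks gave the FPKM values the authors deposited, with 1 row per gene or unnamed assembled locus. The submitters' processing notes name the build mm9, and tool versions are not given in the sources used here. Starts were moved by 1 to count from 1.

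Merged names were split, FPKM was summed per symbol, and unnamed rows were left out of comparisons. Log2 ratios used a pseudocount of 0.1. A gene was tested when either library had FPKM 1 or more and both had status OK, and a fold above 1.5 was counted. The depth was that at which interval bounds of unnamed rows under 100 bases came out as whole fragments (within 0.05 for 99.5% of control and 100% of mutant bounds). Interval widths were read as the number of fragments for which counting error alone would give that width, with the bounds at 2 SD. The intervals do not cover differences between animals.

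With 1 library per genotype no statistical test was run. The antagonists and lists were chosen with earlier results of these data known. The rule for named genes was the 9 antagonists, listed Wnt genes past the cutoff (at most 8 per list), the 2 highest in the control per Wnt list, the 2 markers per list with the highest mean and *Tcf7l2*. *Dkk4*, *Lrp6*, *Zfyve27*, *Usp47*, *Cdh5*, *Hbb-b1*, *Hbb-bs*, *Tagln*, *Opn1sw* and *Pmel* were named after their values were seen. Protein sequences were not used here, and some marker genes are not reported here. Alternatives covered the pseudocount, filter, scaling, row choice, row status, fold, overlap of intervals and splitting of merged names. Python 3.11.15, numpy 2.4.6, pandas 2.3.3 and matplotlib 3.10.9 were used.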

Additional observations from a re-analysis of the deposited data

Results flagged for a closer look

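In the *Tcf7l2*ΔHMG table, unnamed rows lay within 5000 bases of a pair of the antagonists, and the control table had none there. They are given as signal outside the named genes. Beside *Dkk3*, 1 row of 1004 bases lay 92 bases away at 7.55 FPKM (5.39 to 7.86), and another of 433 bases lay 3622 bases away at 1.20 FPKM, nearer to *Usp47* than to *Dkk3*. Beside *Sfrp5*, a row of 200 bases lay 2920 bases away at 8.93 FPKM, above its own interval of 0.626 to 3.005. This row is nearer to *Zfyve27*, which was at 20.8 FPKM in the control library and 9.10 FPKM in the mutant library. The row nearest *Dkk3* is small beside *Dkk3* itself, at 90.7 FPKM in the same library.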

How the results depend on the processing

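No paired analysis was possible because each genotype had 1 library, and no replicate could be left out for the same reason. Setting all rows to a sum of 1000000 changed most. It turned the median log2 ratio of the tested antagonists from 0.30 to −0.35 and the fold of the summed FPKM of all 9 from 1.33 to 0.837, left 0 past the cutoff upwards and 1 downwards, and gave 2 higher and 12 lower genes over the 5 other Wnt lists (21 and 3 as reported). Over all tested genes it gave 640 and 7398. Unnamed rows hold most of that sum. Without the FPKM filter, 4 antagonists were past the cutoff upwards. With a fold change above 2, 0 antagonists passed, and 5 listed Wnt genes were higher and 1 lower, with 975 and 522 over all genes. An FPKM of at least 5 in 1 library left 13 listed Wnt genes higher, and 1290 over all genes. In the remaining 69 cases counts stayed within 1.5 times, and medians and sums kept their direction. The setting that leaves merged names unsplit was chosen after seeing the data. The log2 ratios ranged from 0.00 to 0.67 for *Sfrp1*, from 0.22 to 0.90 for *Sfrp4*, from −0.27 to 0.40 for *Dkk3* and from −1.04 to −0.31 for *Frzb* over 10 alternatives each. Depth limits *Sfrp5*, *Dkk1* and *Dkk2*, which were below 1 FPKM in both libraries.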
